A study of Mus musculus with 3 samples.

Results

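RNA levels of 9 genes for receptors of the inhibitory checkpoint group were followed in mouse T follicular regulatory (TFR) cells: Ctla4, Tigit, Pdcd1, Lag3, Havcr2, Btla, Cd200, Cd96 and Cd226. The genes were chosen by name, as a functional group, out of 25759 genes with a row, and all 9 were among the 7017 genes above 5 RPKM (reads per kilobase of exon, scaled to library size) in at least 1 library, which are called expressed here. The 9 genes were chosen with earlier results of these data known, and the study had already named Ctla4 and Tigit from these libraries. Of the 9, Cd226 encodes an activating receptor that competes with TIGIT and CD96 for the same ligands, and Cd200 encodes a membrane ligand whose receptor, CD200R1, inhibits. The name inhibitory receptor therefore does not hold for these 2 genes.

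TFR cells carry Foxp3 together with the follicular programme (CXCR5, PD-1, ICOS), enter the B cell follicle and restrain the germinal centre. RNA-seq was done on 3 libraries, 1 per genotype, of CD4+B220-GFP+CXCR5+GITRhi cells from spleen and mesenteric lymph nodes of C57BL/6J mice, male or female, whose ages are not given in the sources used here. The library labelled NFATc1-deficient (N) came from Nfatc1fl/fl.Prdm1gfp/+.FIC mice, the library labelled NFATc1/αA-overexpressing (αA) from Nfatc1caaA.Prdm1gfp/+.FIC mice, and the library labelled NFATc1/αA-overexpressing and Blimp-1-deficient (PαA) from Nfatc1caaA.Prdm1gfp/fl.FIC mice. FIC places Cre under Foxp3, so recombination is directed to cells that express Foxp3. In FIC reporter mice the study also found Cre activity in some Foxp3-negative conventional T cells and T follicular helper (TFH) cells. It proposes that these may be former regulatory T cells. Every genotype carries 1 allele of Prdm1, the gene of Blimp-1, with gfp, so that no library here comes from mice with unmodified Prdm1. All mice were given 125 µg NP-KLH in Alum, were boosted on day 7, and their cells were sorted on day 10, and the number of mice behind a library is not given in the sources used here.

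Since each genotype has 1 library, there was no replicate check and no p-value. The 95% intervals below are exact intervals for the read counts and cover counting error only, so that each ratio compares 2 libraries and not 2 genotypes. RPKM was scaled to 29726219 (N), 27239921 (αA) and 25465829 (PαA) reads, totals worked back from each gene's reads, exon length and RPKM, and 27637953, 24258845 and 23269443 reads lay in exons. The targeted gene itself went against the labels: Nfatc1 levels were 63.6 RPKM under the label N, 62.9 under αA and 32.4 under PαA, so Nfatc1 was not lower in the library labelled NFATc1-deficient, and neither library labelled overexpressing stood above it (log2 -0.02 for αA against N, -0.05 to 0.02, and -0.98 for PαA against N, -1.02 to -0.93). Reads over the undeleted exons were not told apart here, and whether the labels are exchanged was not tested. Prdm1 stood at 25.6, 24.9 and 10.0 RPKM, lowest in the library labelled Blimp-1-deficient. Every direction below rests on the labels. In these bulk samples, fewer cells of a type and less RNA per cell cannot be told apart.

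As background, these receptors sit on activated and regulatory T cells and set how strongly antigen and costimulation are read. CTLA-4 takes CD80 and CD86 away from CD28. TIGIT and CD96 bind CD155 (gene Pvr) and related nectins in competition with CD226. PD-1 binds PD-L1 and PD-L2 and recruits SHP-2 to its tail, LAG-3 binds MHC class II, TIM-3 (gene Havcr2) binds galectin-9 and other ligands, and BTLA binds HVEM (gene Tnfrsf14). Regulatory T cells hold high CTLA-4 and TIGIT, follicular T cells high PD-1. NFAT binds the core GGAAA, and Blimp-1, a repressor in lymphocytes, binds GTGAAAG.

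The start regions of Ctla4 and Tigit, which differed most between the PαA and αA libraries, of Pdcd1, and of Cd96, which went the other way, are shown to place these cores. Each window runs from 250 bases before to 50 bases after the RefSeq start site on the gene's strand (GRCm38.p6), and capitals mark GGAAA or its reverse complement TTTCC. Of the 9 genes, 7 had a window here, since Lag3 had none in the reference used and Cd226 was left out of the search. Ctla4 lies at chr1:60887000-60915832 on the plus strand in the files, and its window at chr1:60908775-60909074 falls inside that span. Tigit lies on chromosome 16 with its window at chr16:43664135-43664434, Pdcd1 on chromosome 1 with its window at chr1:94052504-94052803, and Cd96 on chromosome 16 with its window at chr16:46120199-46120498, all 3 on the minus strand.
Ctla4: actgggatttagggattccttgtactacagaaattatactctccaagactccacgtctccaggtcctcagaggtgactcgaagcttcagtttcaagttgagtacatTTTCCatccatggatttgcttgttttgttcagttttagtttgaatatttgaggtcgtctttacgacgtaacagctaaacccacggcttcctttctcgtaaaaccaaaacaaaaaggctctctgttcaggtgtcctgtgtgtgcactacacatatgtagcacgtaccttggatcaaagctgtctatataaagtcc
Tigit: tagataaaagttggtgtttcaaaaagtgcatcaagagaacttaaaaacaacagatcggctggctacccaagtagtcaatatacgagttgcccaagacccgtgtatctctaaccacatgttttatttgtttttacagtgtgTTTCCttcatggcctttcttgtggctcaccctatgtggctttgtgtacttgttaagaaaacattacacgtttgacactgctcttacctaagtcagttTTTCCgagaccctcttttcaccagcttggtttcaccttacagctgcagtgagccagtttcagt
Pdcd1: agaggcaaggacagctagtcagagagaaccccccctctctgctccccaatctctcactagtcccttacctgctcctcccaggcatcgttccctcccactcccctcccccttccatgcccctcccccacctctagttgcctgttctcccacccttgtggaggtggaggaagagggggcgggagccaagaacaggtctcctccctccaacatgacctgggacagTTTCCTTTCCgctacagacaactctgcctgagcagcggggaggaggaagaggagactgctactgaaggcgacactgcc
Cd96: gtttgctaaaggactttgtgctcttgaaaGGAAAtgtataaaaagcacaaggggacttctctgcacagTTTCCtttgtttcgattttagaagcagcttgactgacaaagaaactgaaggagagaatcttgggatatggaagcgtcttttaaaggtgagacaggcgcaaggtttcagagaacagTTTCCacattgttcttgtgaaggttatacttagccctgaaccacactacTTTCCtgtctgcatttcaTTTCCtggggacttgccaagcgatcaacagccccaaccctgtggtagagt
Ctla4 held 1 NFAT core, Tigit 2, Pdcd1 2 that abut, and Cd96 5, whereas the windows of Havcr2, Btla and Cd200 held 0. Both strands were searched, and 61.3% of 32851 RefSeq windows of the same length hold this core, so its presence is common. GTGAAAG or its reverse CTTTCAC occurs in 4.24% of the windows and was found here only in that of Cd200, where it begins 80 bases before the start site. A GTGAAAG followed by GAAA would share its last G with an NFAT core, and this did not occur in the 7 windows. Such matches are descriptions of letters, not binding sites.

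**Figure D1:**
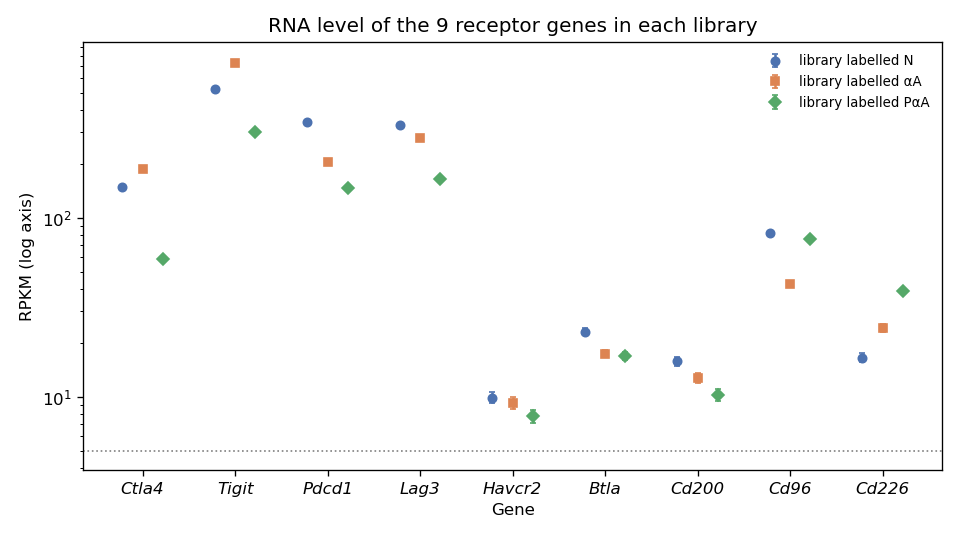
RNA level (RPKM, log axis) of each of the 9 genes in the libraries labelled N, αA and PαA, with 95% Poisson intervals that are smaller than most symbols. The dotted line marks 5 RPKM, the limit for an expressed gene. Tigit, Pdcd1 and Lag3 stand highest in each library, followed by Ctla4 in N and αA and by Cd96 in PαA. The PαA library is lowest for Tigit, Pdcd1, Lag3 and Ctla4 and highest for Cd226.

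By level per exon length, Tigit was the most abundant of the 9 RNAs in each library and Havcr2 the least abundant. Tigit alone made up 35.3% of the summed RPKM of the 9 genes in the N library, 48.4% in αA and 36.7% in PαA. Pdcd1 and Lag3 followed, with Pdcd1 above Lag3 in N and Lag3 above Pdcd1 in αA and PαA. Ctla4 was the fourth in N and αA but ranked below Cd96 in PαA, and Cd226 passed Btla in αA and PαA. The summed RPKM of the 9 genes was 1492 in N, 1513 in αA and 820 in PαA, and they took 0.265%, 0.257% and 0.150% of all exon reads. The sum is thus close between the N and αA libraries and lower in the PαA library, although single genes moved both ways.

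Between αA and N, 0 of the 9 genes passed 2-fold, against 4.25% of all expressed genes (2.81% lower and 1.44% higher). Between PαA and αA, 2 of 9 passed, Ctla4 and Tigit, both lower in PαA, against 4.63% of all expressed genes (2.45% lower and 2.18% higher). The study had already named both genes as low in PαA from these libraries, so this count is no independent support for the group. Between PαA and N, 4 of 9 passed, against 10.3% of all expressed genes: Ctla4, Pdcd1 and Lag3 were lower (7.77% of all expressed genes) and Cd226 was higher (2.57%). Counted by sign alone, 6 of 9 were lower in αA than in N, 7 lower in PαA than in αA and 8 lower in PαA than in N, where 68.1%, 56.9% and 66.4% of all expressed genes were lower. In αA against N the count was thus near the share of all genes. In PαA against αA and PαA against N it lay above that share, by a margin that was not tested. The 7 include Btla (log2 -0.05, -0.15 to 0.06) and the 8 include Cd96 (log2 -0.11). Both of these signs changed under other scalings between libraries (TMM and median-of-ratios factors). The median log2 ratio of the 9 genes was -0.23, -0.31 and -0.62, and that of all expressed genes -0.14, -0.06 and -0.19. The last 2 comparisons share the PαA library and the first and the last share N, so the values of one are not independent of another.

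**Figure D2:**
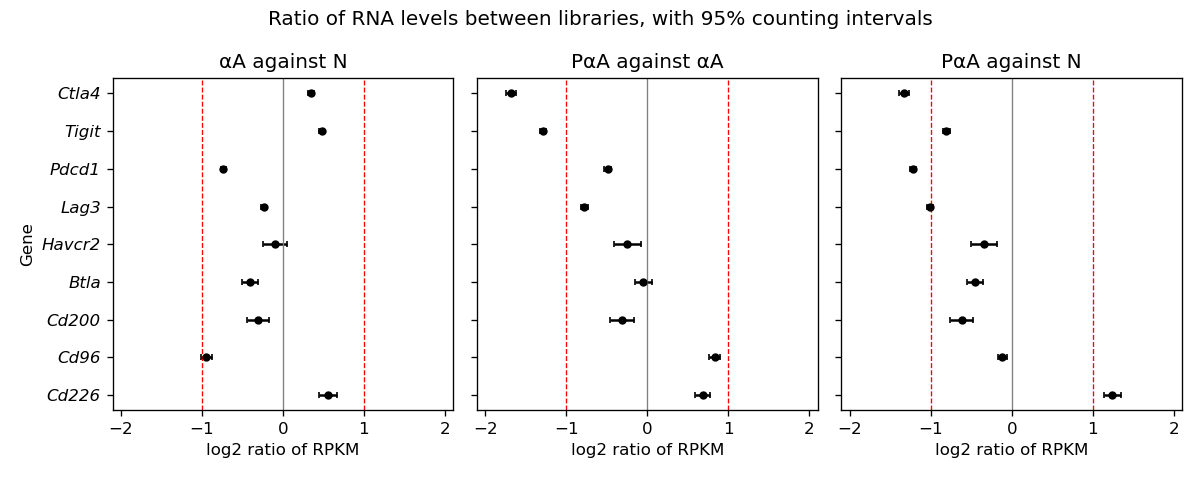
log2 ratio of RPKM for the 9 genes in αA against N, PαA against αA and PαA against N, with 95% counting intervals as bars. The dashed lines mark 2-fold. Ctla4 and Tigit lie past it in PαA against αA, and Ctla4, Pdcd1, Lag3 and Cd226 in PαA against N.

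Ctla4, the receptor that competes with CD28, stood at 148 RPKM in N, 188 in αA and 58.7 in PαA, from 8486, 9898 and 2888 exon reads. The PαA library was low and the others were near each other. The log2 ratio was 0.35 (0.31 to 0.39) for αA against N, -1.68 (-1.74 to -1.62) for PαA against αA, a 3.20-fold difference, and -1.33 (-1.39 to -1.27) for PαA against N. Of all expressed genes, 0.442% had a lower ratio than Ctla4 in PαA against αA.

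Tigit, which binds CD155, stood at 526 RPKM in N, 732 in αA and 301 in PαA, from 15063, 19213 and 7378 reads. It was highest in αA and lowest in PαA. The log2 ratio was 0.48 (0.45 to 0.51) for αA against N, -1.28 (-1.32 to -1.24) for PαA against αA and -0.81 (-0.85 to -0.77) for PαA against N. Ctla4 and Tigit were higher in αA than in N and lowest in PαA, and among the other 7 genes none had this order.

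Pdcd1, which encodes PD-1, stood at 341 RPKM in N, 205 in αA and 147 in PαA, from 19554, 10788 and 7205 reads. The 3 libraries stepped down in this order without overlap of their counting intervals. The log2 ratio was -0.73 (-0.77 to -0.70) for αA against N, -0.49 (-0.53 to -0.44) for PαA against αA and -1.22 (-1.26 to -1.18) for PαA against N. The larger of the 2 steps for Pdcd1 was thus between N and αA, where Ctla4 and Tigit were higher.

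Lag3, the MHC class II binding receptor, stood at 330 RPKM in N, 281 in αA and 164 in PαA, from 19636, 15290 and 8357 reads. The order was that of Pdcd1, with the larger step between αA and PαA. The log2 ratio was -0.23 (-0.27 to -0.20) for αA against N, -0.77 (-0.81 to -0.74) for PαA against αA and -1.01 (-1.05 to -0.97) for PαA against N. The last interval holds 2-fold itself, and with median-of-ratios factors the log2 ratio was -0.76 for Lag3 and -0.97 for Pdcd1, so that both calls were lost.

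Havcr2, Btla and Cd200 were the lowest of the 9 genes in αA and PαA, while in N Cd226 stood below Btla. Havcr2, which encodes TIM-3, stood at 9.85, 9.20 and 7.76 RPKM, and its αA against N interval held no difference (log2 -0.10, -0.25 to 0.05). Btla stood at 23.1, 17.4 and 16.9 RPKM and was higher in N, while αA and PαA did not differ beyond counting error (log2 -0.05, -0.15 to 0.06). Cd200 stood at 15.7, 12.7 and 10.3 RPKM, with a log2 ratio of -0.31 in each of the 2 steps and -0.62 (-0.76 to -0.47) for PαA against N. None of these 3 genes passed 2-fold in any comparison.

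Cd96, the second CD155 receptor, stood at 82.3 RPKM in N, 42.8 in αA and 76.1 in PαA, from 5344, 2546 and 4231 reads. It was low in αA and near its N level in PαA. The log2 ratio was -0.94 (-1.01 to -0.88) for αA against N, 0.83 (0.76 to 0.90) for PαA against αA and -0.11 (-0.17 to -0.06) for PαA against N. The interval of the first ratio holds 2-fold itself. No other gene of the 9 was lowest in αA.

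Cd226, the activating receptor for CD155 on chromosome 18, stood at 16.5 RPKM in N, 24.3 in αA and 39.0 in PαA, from 1157, 1561 and 2341 reads. The 3 libraries stepped up, the reverse of Pdcd1, Lag3 and Cd200. The log2 ratio was 0.56 (0.45 to 0.67) for αA against N, 0.68 (0.59 to 0.78) for PαA against αA and 1.24 (1.14 to 1.34) for PαA against N. Of the 9 genes only Cd226 was higher in PαA than in N, and 1.82% of all expressed genes had a higher ratio there.

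**Figure D3:**
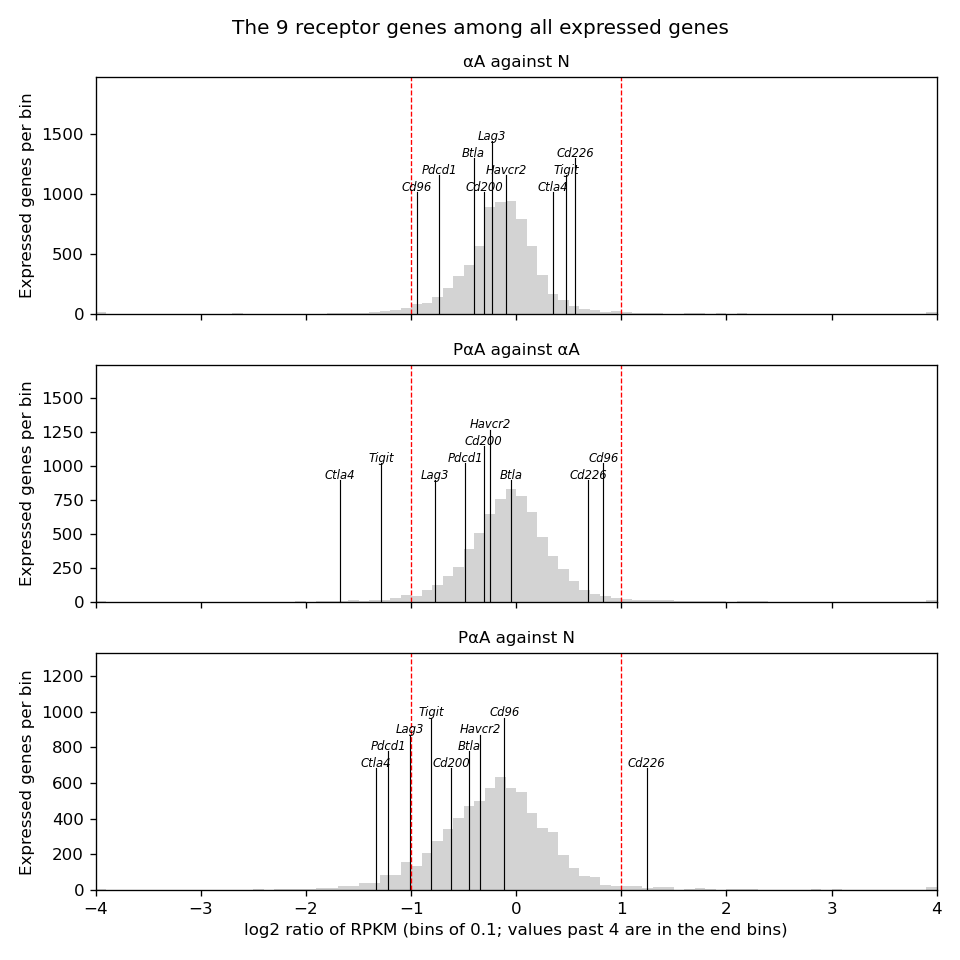
Number of expressed genes (of 7017) per bin of the log2 ratio of RPKM, in the 3 comparisons, with a line at the ratio of each of the 9 genes. The line height only separates the names, and the dashed lines mark 2-fold. In PαA against αA, Ctla4 and Tigit lie in the lower tail and Cd96 and Cd226 in the upper shoulder.

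Receptors that compete for a ligand were then set against each other within a library, a ratio that no scaling between libraries can move. Ctla4 stood 2.15-fold above Cd28 per exon length in N (2.08 to 2.21) and 2.15-fold in αA (2.09 to 2.21), but at 0.708 of Cd28 in PαA (0.679 to 0.739). Cd28 itself stood at 68.8, 87.3 and 82.8 RPKM, so that Cd28 stood above Ctla4 in PαA alone.

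Tigit stood 31.9-fold above Cd226 in N (30.0 to 33.9), 30.1-fold in αA (28.6 to 31.7) and 7.71-fold in PαA (7.36 to 8.08). Cd96 stood 4.98-fold above Cd226 in N, 1.76-fold in αA and 1.95-fold in PαA. Between the inhibitory partners, Tigit stood 6.39-fold above Cd96 in N, 17.1-fold in αA and 3.95-fold in PαA. TIGIT transcripts therefore exceeded those of CD226 in every library, by the smallest margin in PαA, and these are RNA and not protein levels.

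**Figure D4:**
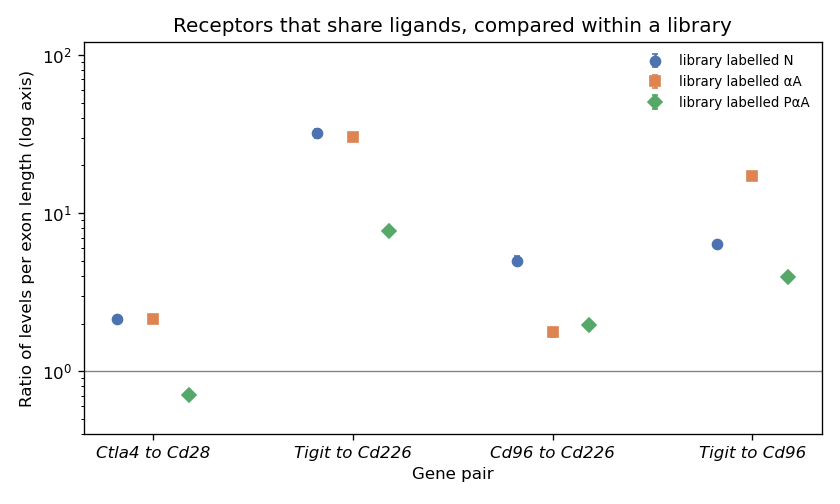
Ratio of the levels per exon length of paired genes (log axis) within each library, with 95% counting intervals. The line marks equal levels. Ctla4 to Cd28 lies at 2.15 in N and αA and at 0.708 in PαA, and Tigit to Cd226 at 31.9 and 30.1 and at 7.71.

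The files also count reads over exon-exon junctions and over introns, readouts that share the libraries but not the same reads of a gene in full. Cd226 moved alike in each: its intron log2 ratio was 0.62, 0.65 and 1.27 for αA against N, PαA against αA and PαA against N, and introns took 21.9%, 22.7% and 22.3% of its gene reads. Its intron ratio less its exon ratio was 0.06 for αA against N, and 29.3% of expressed genes lay below this. Tigit intron reads were 1986, 1966 and 790, with a log2 ratio of -1.22 (-1.34 to -1.10) for PαA against αA, close to its exon ratio. For αA against N the Tigit intron ratio was 0.11 (0.02 to 0.20) where the exon ratio was 0.48, and the intron ratio less the exon ratio was -0.37, beside a median of 0.45 over expressed genes. For PαA against N it was -1.11 (-1.23 to -0.99) where the exon ratio was -0.81.

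Ctla4 differed between readouts. Its junction reads numbered 880, 1128 and 268 (N, αA, PαA), which gave a log2 ratio of -1.98 (-2.17 to -1.78) for PαA against αA, while its intron reads were 722, 949 and 675, a log2 ratio of -0.39 (-0.54 to -0.25). Introns thus took 7.84% of Ctla4 gene reads in N, 8.75% in αA and 18.9% (17.7 to 20.3) in PαA, whereas over all genes the intron share was 3.62%, 5.30% and 3.91%. Among 3193 expressed genes with at least 20 intron reads in both libraries, the intron log2 ratio less the exon log2 ratio was lower than that of Ctla4 in 96.6%. A processed pseudogene, Rpl18-ps1, is annotated within the Ctla4 span on the same strand (GENCODE M21, GRCm38) and has no row of its own, and its part in the intron reads was not tested. No other gene is annotated over the other 8 genes.

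Cd96 intron reads were 96, 150 and 21, a log2 ratio of -2.74 (-3.47 to -2.08) for PαA against αA where its exon ratio was 0.83 and its junction ratio 0.82 (0.71 to 0.93). Exon and junction reads of Cd96 moved together, and its few intron reads moved the other way. Btla intron reads were 122, 51 and 16, a log2 ratio of -1.58 (-2.49 to -0.74) for PαA against αA where its exon ratio was -0.05. Cd200 junction reads were 117, 115 and 34, a log2 ratio of -1.66 (-2.26 to -1.10) for PαA against αA where its exon ratio was -0.31, so junctions took 10.6%, 14.1% and 5.52% of its exon reads. Junction and exon ratios of Lag3 were within 0.06 of each other in each comparison, but its few intron reads (35, 28 and 34) gave a log2 ratio of 0.38 (-0.39 to 1.15) for PαA against αA and 0.18 (-0.54 to 0.90) for PαA against N, apart from exon ratios of -0.77 and -1.01. Pdcd1 intron reads were 115, 123 and 54, a log2 ratio of -1.09 (-1.58 to -0.62) for PαA against αA where its exon ratio was -0.49. For αA against N it was 0.22 (-0.16 to 0.60) where the exon ratio was -0.73. The median intron ratio less exon ratio over expressed genes was 0.45 for αA against N, -0.03 for PαA against αA and 0.41 for PαA against N. Below the difference of Pdcd1 in αA against N lay 74.0% of these genes, and below that of Lag3 in PαA against N 83.4%.

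**Figure D5:**
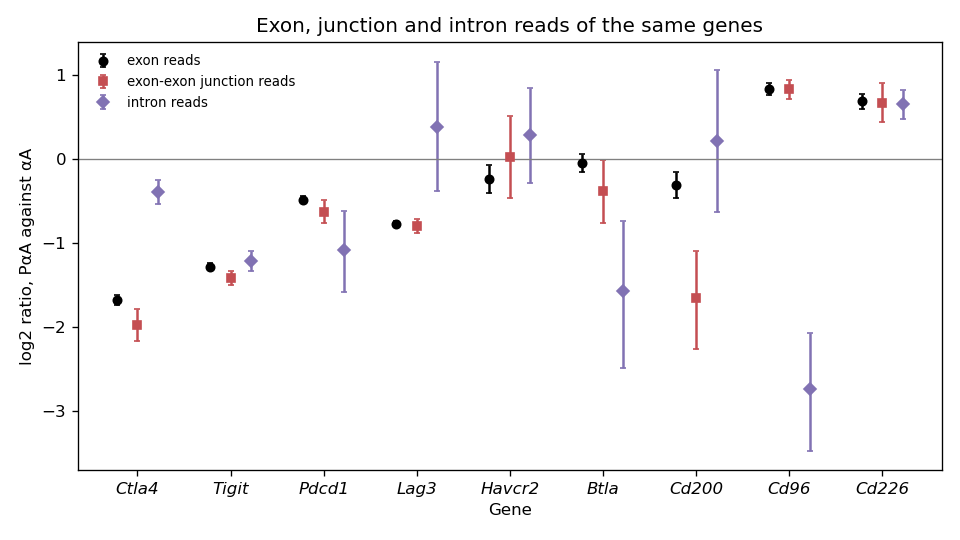
log2 ratio of PαA against αA for exon reads, exon-exon junction reads and intron reads of each of the 9 genes, scaled to the library totals, with 95% counting intervals. The 3 readouts lie together for Cd226. Among the readouts that lie apart from the exon reads are the intron reads of Ctla4, Pdcd1, Lag3, Btla and Cd96 and the junction reads of Ctla4 and Cd200.

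The other genes of these pathways were taken by list. Of all expressed genes, 4.25% passed 2-fold in αA against N, 4.63% in PαA against αA and 10.3% in PαA against N. The shares more than 2-fold lower were 2.81%, 2.45% and 7.77%. The counts below stand beside these shares. Of 15 genes for ligands and counter-receptors, 9 were expressed, 1 was more than 2-fold lower in αA than in N, 0 passed between PαA and αA, and 1 was higher in PαA than in N. The first was Cd200r1, the inhibitory receptor for CD200, at 18.7 RPKM in N, 8.14 in αA and 11.3 in PαA, and the second Lgals3, which encodes a galectin that binds LAG-3, at 29.4, 35.1 and 65.2. Cd274, which encodes PD-L1, stood at 8.34, 10.9 and 6.46 RPKM, and Pvr at 3.52, 6.74 and 4.60, below 5 in 2 of the 3 libraries.

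Of 8 costimulatory relatives, 7 were expressed. Cd27, a costimulatory receptor of the TNF receptor family, was higher in αA than in N (132 and 265 RPKM, log2 1.00, 0.96 to 1.05) and stood at 136 in PαA. Tnfrsf9, which encodes 4-1BB, stood at 141, 91.2 and 30.9 RPKM and was lower in PαA than in αA (log2 -1.56) and than in N (log2 -2.19), so it moved with Pdcd1 in sign in each comparison. Of 10 other inhibitory receptors, 9 had a row and 5 were expressed, and Klrg1, a cadherin-binding inhibitory receptor, alone passed 2-fold, in all 3 comparisons, at 172, 11.7 and 26.9 RPKM. Its log2 ratio of -3.88 for αA against N was far larger than that of any of the 9 genes.

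The 10 genes for signal mediators of inhibitory tails, such as phosphatases, were all expressed and 0 passed 2-fold in any comparison. Of 6 genes for CTLA-4 traffic, Lrba, which protects CTLA-4 from lysosomal loss, stood at 15.6, 12.1 and 5.76 RPKM and was lower in PαA than in αA (log2 -1.07, -1.16 to -0.99) and than in N. Trat1, which encodes TRIM, an adaptor that brings CTLA-4 to the surface, stood at 39.5, 18.0 and 50.6 RPKM, low in αA like Cd96.

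Of 16 regulators of checkpoint genes, 13 were expressed, 0 passed between αA and N, 2 were lower in PαA than in αA (Prdm1 and Nr4a3) and 5 lower in PαA than in N (Prdm1, Maf, Nr4a1, Nr4a3 and Foxp3). Nr4a3, a nuclear receptor induced by antigen receptor signals, stood at 11.4, 6.79 and 2.68 RPKM and Nr4a1 at 39.6, 21.3 and 14.2. Maf, a transcription factor of follicular T cells, stood at 105, 84.5 and 43.3 RPKM, and Foxp3, which defines regulatory T cells, at 32.7, 20.9 and 15.3. These 4 genes, all past 2-fold lower in PαA against N, stepped down from N to αA to PαA, as Pdcd1 and Lag3 did. Of the other expressed regulators, Nfatc2, Tox, Tox2 and Irf4 also stepped down, and Batf, Tbx21 and Tcf7 did not. The targeted genes Nfatc1 and Prdm1 were lowest in PαA but did not differ between N and αA beyond counting error. Their log2 ratios for αA against N were -0.02 (-0.05 to 0.02) and -0.04 (-0.11 to 0.02). Among all expressed genes, 68.1% were lower in αA than in N and 56.9% lower in PαA than in αA, and the share lower in both steps was not counted. Whether the step down is tied to the receptors was not tested.

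In PαA against αA the median log2 ratio of the expressed genes was -0.24 for ligands and counter-receptors, -0.77 for costimulatory relatives, -0.05 for other inhibitory receptors, -0.20 for signal mediators, -0.25 for CTLA-4 traffic genes and -0.51 for regulators, beside -0.31 for the 9 receptor genes and -0.06 for all expressed genes.

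The labelled cell type was checked by markers. The 7 T cell and Treg markers were expressed and summed to 1401, 1301 and 972 RPKM, and the 7 TFH markers, 6 of them expressed, to 402, 442 and 293. Marker lists of other cells had lower sums, the 6 B cell genes 20.5, 14.8 and 16.0, the 4 plasma cell genes 112, 128 and 164, the 5 CD8 T and NK genes 13.6, 20.4 and 17.2, and 7 myeloid and dendritic genes 249, 146 and 216. The lists hold different genes, so their sums do not rank cell types. Lyz2 (214, 134 and 184 RPKM) and Jchain (44.3, 58.4 and 94.8) stood above Foxp3 (32.7, 20.9 and 15.3) and below Cd3e and Cd4 in each library. Single markers moved further than the list sums. In the PαA library, where 8 of the 9 receptor genes were lower than in N, the plasma cell markers Sdc1 (0.744, 1.03 and 5.97 RPKM, 8.03-fold against N and 5.82-fold against αA) and Jchain (44.3, 58.4 and 94.8, log2 1.10 against N) and the NK marker Klrb1c (2.92, 4.23 and 5.90, log2 1.02 against N) were higher. The rest of the plasma cell list did not rise alike: Xbp1 was near level (46.7, 50.4 and 50.9 RPKM) and Irf4 was lowest in PαA (20.5, 17.9 and 12.3). The NK marker Ncr1 had 12, 15 and 10 reads. The CD8 marker Cd8b1 was lower in PαA than in αA (400, 486 and 198 reads, log2 -1.20). Cd8a went the other way, with 18, 179 and 231 reads (log2 3.44 for αA against N and 0.47 for PαA against αA). Klrk1 of the same list also rose, with 115, 154 and 253 reads. Tnfrsf18, which encodes GITR, the receptor used in the sort, was lower in PαA than in N (303, 217 and 145 RPKM, log2 -1.07). In the αA library, where Cd96 was lowest, the neutrophil marker S100a8 stood at 12.8, 0.831 and 11.9 RPKM (log2 -3.95 against N). S100a9 had 235, 0 and 153 reads. The myeloid list was mixed: Lyz2 was also lowest in αA (214, 134 and 184 RPKM), but Csf1r was highest there (6.25, 10.6 and 6.62). Itgax had 121, 112 and 272 reads. The cytokine gene Il4 stood at 8.69, 2.54 and 4.15 RPKM (log2 -1.78 for αA against N, and -1.07 for PαA against N). Clec9a, a dendritic cell marker, had 3 reads or fewer in N and PαA. Myeloid cells can carry Havcr2, which stood at 9.85, 9.20 and 7.76 RPKM beside the myeloid sums above. B cells can carry Btla and Cd200, and both, like the B cell sum, were highest in N. The part of other cells in the levels of the 9 genes was not tested.

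For each gene the 3 genes whose pair of log2 ratios (αA against N, PαA against αA) lay closest were named, by straight-line distance among 6888 expressed genes with at least 100 reads in each library. For Ctla4 these were Pacsin1, Izumo1r and Serpinf1, at distances of 0.101, 0.118 and 0.134. Izumo1r encodes folate receptor 4, a surface protein of regulatory T cells, and stood at 462, 560 and 164 RPKM. For Tigit they were Cd8b1, Tnfrsf1b and Spry1, of which Tnfrsf1b, the TNF receptor type found on regulatory T cells, stood at 225, 327 and 126 RPKM.

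Pdcd1 was nearest to Gbp7, Erbin and 1700019D03Rik, and Lag3 to Uba7, Srp54b and Tnfrsf4, the last of which encodes the costimulatory receptor OX40 and stood at 429, 374 and 220 RPKM. Srp54b had 9.35% unique reads and is uncertain. Cd96 was nearest to Rabl3, Paxx and Ccr4, a chemokine receptor of effector regulatory T cells at 58.7, 29.3 and 52.8 RPKM. Cd226 was nearest to Ap3s1, H2-Aa and Ly6a, the last at 231, 334 and 507 RPKM. Havcr2 was nearest to Rbfa, Fbrs and Cpsf2, Btla to Plcl2, Mocs3 and Nipsnap2, and Cd200 to Fubp1, Dus2 and Ap2a1, which lie in the dense middle of all genes where close neighbours are many. Among the nearest genes 0 were members of the group of 9, and likeness over 3 libraries carries no test.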

How the data were processed

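Poly(A) RNA of TFR cells was sequenced in 3 libraries, 1 per genotype. Per the study's methods the authors mapped single reads to GRCm38 with CLC Genomics Workbench under default settings. The annotation release and the use of strand in counting are not given in the sources used here. The authors deposited 1 table per library with whole-number counts of exon, unique, junction and intron reads per gene, and RPKM and TPM values written with decimal commas. RPKM was taken as deposited, with a threshold of 5 RPKM in at least 1 library and a ratio above 2 either way. Of 25759 genes, 3715 had an exon length of 0 and no RPKM. Ratios carry exact 95% Clopper-Pearson intervals and levels exact Poisson intervals (scipy 1.17.1), which cover counting error only, since the reads carry no molecular identifiers. Differential tests were not run, because each genotype has 1 library. TMM factors came from edgeR 4.0.16. Intervals and calls were tested on simulated data. All 9 receptor genes are named, as are the list genes past the 2-fold rule, Nfatc1, Prdm1, Foxp3, and the 3 genes nearest to each receptor gene. Cd28, Cd274 and Pvr were named as partners of the receptors. The members and gene lists were chosen with earlier results of these data known. Start regions were read from RefSeq (GRCm38.p6). Alternatives were TPM, TMM and median-of-ratios scaling, the filter on low values, the fold threshold, unique reads and a pseudocount.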

Additional observations from a re-analysis of the deposited data

How the results depend on the processing

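Of the 27 ratios of the 9 receptor genes, 24 kept their sign under each of 6 alternatives. The others, Havcr2 in αA against N, Btla in PαA against αA and Cd96 in PαA against N, changed sign with TMM and median-of-ratios factors, and none had passed 2-fold. Pseudocounts of 1 and 0.1 cannot change the sign of a ratio. Unique reads could move only Tigit and Lag3, since all exon reads of the other genes were unique. The kept signs therefore rest mainly on TPM, TMM and median-of-ratios scaling. In PαA against N, 4 receptor genes passed with RPKM and 2 with TMM or median-of-ratios factors (Ctla4 and Cd226), and 5 passed with TPM, which added Tigit. Above 1.5-fold, 2, 5 and 6 genes passed in αA against N, PαA against αA and PαA against N, and above 3-fold 0, 1 (Ctla4) and 0. Of all expressed genes, 298, 325 and 725 passed with RPKM in the same order. TPM gave 558, 632 and 1539, a minimum of 1 RPKM 978, 1016 and 1715, no filter 2172, 1953 and 2647, a 1.5-fold threshold 988, 1033 and 1966, a 3-fold threshold 108, 110 and 196, and a pseudocount of 1 gave 194 in αA against N and 215 in PαA against αA. The share of higher genes among these calls was 33.9%, 47.1% and 24.8% with RPKM, 54.5%, 56.6% and 50.7% with TMM factors, 54.9%, 57.4% and 52.9% with median-of-ratios factors and 25.6%, 29.7% and 12.2% with TPM. TMM factors moved the median log2 ratio of all expressed genes in PαA against N from -0.19 to 0.05. No paired analysis was possible because each genotype has 1 library.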
